A study of Mus musculus with 15 samples.

Results

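The comparison described here set mammospheres treated with U0126 against mammospheres treated with PP2, without the vehicle samples as a reference. The labels give U0126 as an inhibitor of MEK1, a kinase whose substrate is ERK, and PP2 as a Src inhibitor. Samples were chosen by their titles, which gave 3 U0126 and 3 PP2 cultures, or 6 of the 15 samples of the series. All were spheres grown without attachment and without serum, in medium with EGF, FGF and B27, from primary mammary tumour cells of FVB/N mice that carry the MMTV-PyMT transgene. After 10 days of culture the inhibitor was present for the last 2 of 12 days, so time was matched. For the doses of either compound the labels used here hold no value, and the 2 treatments are set side by side as given. The 3 vehicle cultures of the same series are quoted as the untreated level. DAPT and TAE226 samples, which complete the series, entered the shared estimate of spread and the choice of probe sets and genes tested, and no comparison. The labels call the samples biological replicates without saying whether mice or cultures differed, so each p-value reflects only how far these arrays scatter, which may be technical.

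MMTV-PyMT drives the polyoma virus middle T protein from the mouse mammary tumour virus promoter, chiefly in mammary epithelium. Middle T sits at the membrane, binds and activates Src family kinases, and through them recruits adaptors that feed the RAS, RAF, MEK and ERK cascade and PI3 kinase. Src kinases therefore act upstream of several pathways, whereas MEK is a step within one of them. ERK drives immediate early transcription factors and its own inhibitors, the dual-specificity phosphatases and Sprouty proteins. In normal mammary epithelium, EGF receptor and ERK signalling promotes growth, while prolactin and STAT5 drive alveolar cells to make milk.

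Signals from the Mouse430_2 arrays are given on the log2 scale, so 1 unit is a 2-fold difference. Array medians of the 6 arrays lay between 73.1 and 91.0 before the log was taken. A gene is called dim in a group whose 3 arrays all lay at or below their own medians, and its fold is then given as a lower bound computed from those medians. Median absolute log2 differences between 2 arrays were 0.106 to 0.133 within U0126 or PP2 and 0.325 to 0.351 between them. Actin control probe sets near the 3′ and 5′ ends of the transcript, whose signal ratio reports on RNA integrity and labelling, gave ratios of 1.28 ± 0.07 in U0126, 1.57 ± 0.04 in PP2 and 1.42 ± 0.06 in vehicle (SD, n = 3 each). The same ratio for Gapdh was 0.791 ± 0.017 in U0126, 0.827 ± 0.016 in PP2 and 0.777 ± 0.0026 in vehicle. Neither ratio overlapped between the U0126 and PP2 arrays, so both moved with every gene group below, and their part in the results was not tested. The running numbers in the sample labels follow the groups, so array order and treatment cannot be told apart. All 8 mammary epithelial markers lay above the median on all 6 arrays, with a summed signal of 72459 to 81669 in U0126 and 81342 to 82996 in PP2. Among markers of other cells, 9 of 10 fibroblast, 6 of 8 endothelial, 4 of 7 lymphocyte and all 5 adipocyte markers were dim on all 6.

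Of 11458 genes tested, 6375 (55.6%) differed between U0126 and PP2 at an adjusted p below 0.05 (limma), 3201 (27.9%) higher in U0126 and 3174 (27.7%) higher in PP2. At least 2-fold apart were 1180 genes (10.3%), of which 693 (6.05%) were higher in U0126 and 487 (4.25%) higher in PP2. The 3 arrays of one group did not overlap with those of the other in 60.6% of genes. The median difference over all genes was −0.02. With arrays centred on their medians it was 0.12, and 67.3% rather than 50.2% of called genes were then higher in U0126. With 55.6% of genes called, the gene groups below are read against these shares.

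**Figure D1:**
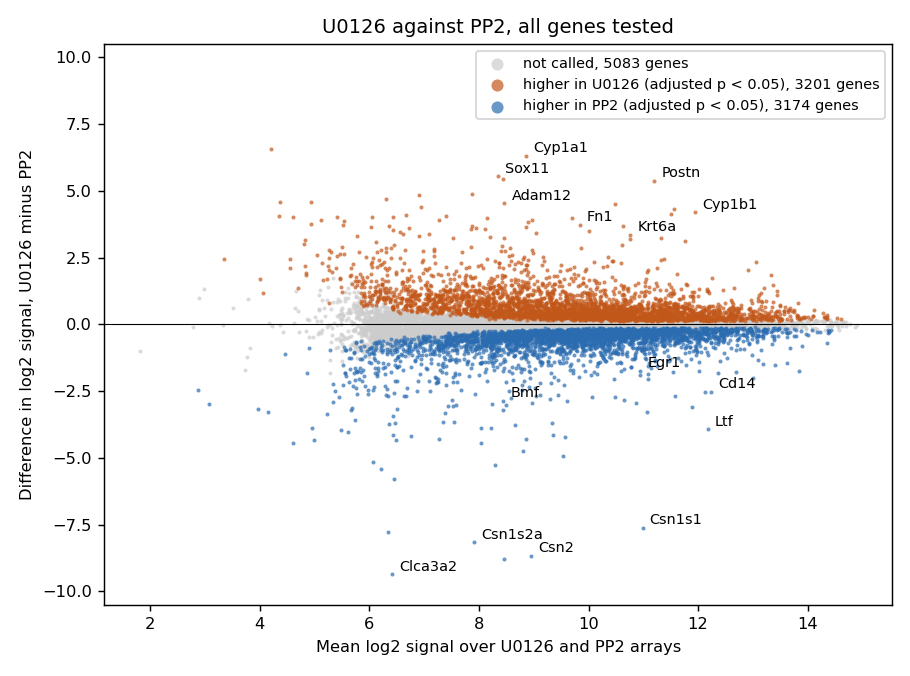
Difference in log2 signal (U0126 minus PP2, vertical) against mean log2 signal over the 6 arrays (horizontal) for 11458 genes, with 3201 genes higher in U0126 in orange, 3174 higher in PP2 in blue and genes not called in grey. Casein genes (Csn2, Csn1s1, Csn1s2a) lie at the bottom, and Cyp1a1, Sox11 and Postn at the top.

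Genes of milk and of alveolar cells were higher in PP2. All 15 of 15 tested were called higher in PP2 (27.7% of all genes were), 13 of them by at least 2-fold, with a median difference of −2.21, or −1.73 with genes dim in U0126 held at their bound. Without the filter on dim genes the count was 16 of 17. Caseins are the main proteins of milk. β-casein, Csn2, had log2 signals of 13.31, 13.13 and 13.39 under PP2, 4.30, 4.96 and 4.57 under U0126 and 6.54, 6.51 and 6.37 in vehicle. It was dim under U0126 and at least 128-fold higher in PP2 (adjusted p = 1.17e-15). α-S1 casein, Csn1s1, read 14.76, 14.85 and 14.78 under PP2, 7.47, 6.98 and 7.07 under U0126 and 12.39, 12.40 and 12.49 in vehicle. Both groups thus lay far from vehicle, on opposite sides, and the difference between them was −7.62 (SE 0.09, adjusted p = 2.13e-18). Lactoferrin, Ltf, an iron-binding defence protein of milk, read 14.08, 14.26 and 14.07 under PP2 and 10.16, 10.38 and 10.08 under U0126 (−3.93, SE 0.08, adjusted p = 1.17e-15), with a vehicle mean of 12.15.

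Csn1s2a was at least 52.6-fold and α-lactalbumin, Lalba, which makes lactose synthesis possible, at least 6.19-fold higher in PP2 (adjusted p = 2.33e-08 and 5.3e-06). Xdh, which takes part in secretion of milk fat, differed by −2.21, κ-casein, Csn3, by −1.74 and the milk fat globule protein Btn1a1 by −1.56. The regulators differed less. Elf5, an alveolar transcription factor, differed by −1.13 and Stat5a, which carries the prolactin signal, by −0.70. Stat5b differed by −0.56, but another of its probe sets gave 2.51 (adjusted p = 0.00197). The whey acidic protein Wap (−1.19) did not pass without U0126 replicate 3 (−0.62, adjusted p = 0.0714). Relative to vehicle, the medians of the 15 genes were −1.39 for U0126 and 1.11 for PP2. These arrays measured whole cultures, so fewer cells of a type and less RNA per cell cannot be told apart.

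Promoters of 2 caseins are shown because both genes moved together and hold a match to TTCNNNGAA, the palindrome that STAT proteins bind, which was searched on both strands. They are the 250 bases before the start (RefSeq, GRCm38.p6), with the match in capitals.
Csn1s1 (chr5:87665958-87666207, + strand): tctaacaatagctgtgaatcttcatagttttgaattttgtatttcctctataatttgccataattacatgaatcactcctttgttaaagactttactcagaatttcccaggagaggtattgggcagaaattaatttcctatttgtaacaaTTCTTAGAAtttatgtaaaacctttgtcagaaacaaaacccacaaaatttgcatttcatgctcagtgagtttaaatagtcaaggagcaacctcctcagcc
Csn2 (chr5:87699426-87699675, − strand): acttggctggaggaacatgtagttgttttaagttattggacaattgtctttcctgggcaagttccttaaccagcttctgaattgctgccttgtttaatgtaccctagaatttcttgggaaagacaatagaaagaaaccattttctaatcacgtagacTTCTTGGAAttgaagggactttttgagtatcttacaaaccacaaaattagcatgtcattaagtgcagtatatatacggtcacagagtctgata
Each holds 1 match, with its first base at position −100 (Csn1s1) and −93 (Csn2) from the start. Of the 12 milk and alveolar genes with a promoter in the table, these 2 held a match, and 7.02% of 32851 promoters did. Motifs were chosen after the expression values were known, and a match is a description of letters only.

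Luminal markers other than milk genes went both ways. The receptor tyrosine kinase Kit, a marker of luminal progenitors, read 13.22, 13.35 and 13.25 under PP2, 11.49, 11.47 and 11.45 under U0126 and 11.48, 11.54 and 11.54 in vehicle (−1.80, SE 0.05, adjusted p = 4.96e-14). Only the PP2 arrays stood apart from vehicle. Gata3, the main transcription factor of luminal cells, had means of 12.25 under PP2, 11.01 under U0126 and 11.01 in vehicle (−1.25, SE 0.05). The luminal keratins Krt8 and Krt18 did not pass, with Krt8 at 0.14 and Krt18 at 0.04, and Krt8 passed with median centring (0.27, adjusted p = 0.0427). Of 10 luminal markers 3 were higher in U0126 and 4 in PP2 (27.9% and 27.7% of all genes were). The first were Krt19 (0.48), the membrane protein Prom1 (1.70) and the oestrogen receptor Esr1, which was dim in PP2 (at least 1.29-fold). Epcam (−0.28) and Cd24a (−0.22) completed the second. Both lost their calls with median centring (adjusted p = 0.271 and 0.512), and Cd24a also without PP2 replicate 2 (adjusted p = 0.0662) or U0126 replicate 3 (0.0789).

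Outside the milk list, several of the greatest differences towards PP2 were in genes dim under U0126. Clca3a2, a relative of chloride channel regulators, was at least 28.0-fold higher in PP2, the unnamed gene 2310057J18Rik at least 95.9-fold and the kallikrein Egfbp2 at least 25.0-fold. Lrg1, a secreted leucine-rich glycoprotein, followed with at least 15.4-fold and the cornified envelope precursor Sprr1a with at least 15.8-fold. The probe sets of 2310057J18Rik and Egfbp2 are of types that can also detect related transcripts, so their signals may not be theirs alone. The same holds for other genes named below, such as Angptl4, Adm, Phgdh and Ccn1. The lectin Clec2d (7.08 ± 0.12 in U0126, 11.99 ± 0.06 in PP2) and Sectm1b (6.44 ± 0.10 and 11.17 ± 0.03) were not dim in either group and differed by −4.91 and −4.72. Cd14, a receptor for bacterial lipopolysaccharide and a myeloid marker, read 10.99, 10.90 and 11.02 under U0126, 13.53, 13.50 and 13.48 under PP2 and 13.44, 13.43 and 13.57 in vehicle (−2.53, SE 0.05). Through it the summed signal of 10 macrophage markers ran from 2284 to 2538 in U0126 and from 11798 to 12262 in PP2. Cd68, another macrophage marker, was dim in PP2 and called higher in U0126 (0.86), but not without PP2 replicate 2 (adjusted p = 0.0816) or U0126 replicate 3 (0.0596). Csf1r (0.02) and Adgre1 (−0.59) did not pass. The defining markers C1qa, C1qb, Lyz2, Mrc1, Itgam and Fcgr1 were dim on all 6 arrays.

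Genes of mitosis were all lower in PP2. Each of the 23 genes tested on the G2/M and mitosis list was higher in U0126 (27.9% of all genes were), each by at least 2-fold (6.05% of all genes), with a median difference of 1.42 and a range from 1.05 to 1.81. Cdk1, the kinase that starts mitosis, read 11.39, 11.30 and 11.26 under U0126, 9.43, 9.76 and 9.79 under PP2 and 11.02, 10.93 and 11.16 in vehicle (1.66, SE 0.09, adjusted p = 1.25e-10). The spindle checkpoint kinase Bub1 read 9.36, 9.39 and 9.32 under U0126, 7.16, 7.67 and 7.84 under PP2 and 9.34, 9.33 and 9.31 in vehicle (1.81, SE 0.15, adjusted p = 2.29e-08). In both genes the PP2 arrays lay apart from the other 6. Cyclin B2, Ccnb2, which partners Cdk1, differed by 1.75 and the centromere histone Cenpa by 1.69. The proliferation marker Mki67 (1.05) and the mitotic kinase Aurka (1.38) differed too. Medians of the list relative to vehicle were −0.06 for U0126 and −1.49 for PP2.

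The Cdk1 promoter is shown for the CHR motif, TTTGAA or TTCAAA on the other strand, which binds the complex that times mitotic genes. Its 250 bases before the start (RefSeq, GRCm38.p6) hold 2 matches, in capitals.
Cdk1 (chr10:69352913-69353162, − strand): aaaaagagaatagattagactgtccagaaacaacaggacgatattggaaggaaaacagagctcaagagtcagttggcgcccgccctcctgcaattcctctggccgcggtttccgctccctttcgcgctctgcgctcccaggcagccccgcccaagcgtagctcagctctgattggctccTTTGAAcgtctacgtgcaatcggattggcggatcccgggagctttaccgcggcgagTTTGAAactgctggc
Of 19 list members with a promoter in the table, 7 held a match, Top2a, Cdc20 and Mki67 among them, and 16% of all promoters did.

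Genes of DNA replication were mostly higher in U0126 too, with a smaller median. Of 21 G1/S and replication genes 19 were higher in U0126 and 0 in PP2 (27.9% and 27.7% of all genes were), with a median of 0.83. The 19 became 17 without PP2 replicate 1 or U0126 replicate 1, 18 with the 6 arrays alone and 20 with median centring. Uhrf1, which keeps DNA methylation through replication, differed by 1.45, the ribonucleotide reductase subunit Rrm2 by 1.44 and the licensing factors Mcm5 and Cdt1 by 1.22 and 1.20. Pcna (0.05) and Mcm2 (0.38) did not pass, but Mcm2 did without PP2 replicate 2 (0.74, adjusted p = 0.00247), with median centring (0.51, adjusted p = 0.0481) and with another of its probe sets (1.04, adjusted p = 7.83e-07). Medians relative to vehicle were −0.16 for U0126 and −0.89 for PP2.

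The study's title concerns the phosphatase Shp2 and senescence, so cell cycle inhibitors were read one by one. Ptpn11, which encodes Shp2, was at 11.94, 11.90 and 11.88 under U0126 and 11.85, 11.86 and 11.89 under PP2, which overlap (difference 0.04, adjusted p = 0.576). Cdkn1a (p21), which blocks cyclin-dependent kinases, read 12.43, 12.64 and 12.43 under U0126 and 11.34, 11.28 and 11.20 under PP2 (1.23, SE 0.06, adjusted p = 7.25e-11). Cdkn1b (p27) went the other way, with 10.79, 10.61 and 10.74 under U0126 and 11.60, 11.68 and 11.59 under PP2 (−0.91, SE 0.05, adjusted p = 5.48e-10). Vehicle means were 12.29 for Cdkn1a, near U0126, and 11.35 for Cdkn1b, between the groups. Skp2, the ligase subunit that marks p27 for destruction, was higher in U0126 by 0.76 (SE 0.07). Cdkn2a (0.73), which encodes p16 and p19Arf, Cdkn2b (0.52) and the lamin Lmnb1 (0.61) were also higher in U0126. Igfbp7, a secreted binding protein, showed the greatest difference on the list, 2.62 (SE 0.11).

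Of 14 genes on the list of senescence genes and cell cycle inhibitors, 9 were higher in U0126 and 4 in PP2 (27.9% and 27.7% of all genes were). The 4 were Cdkn1b, Igfbp5 (−0.83), Cdkn2c (−0.45) and the lysosomal galactosidase Glb1 (−0.28). The list pools genes of unlike roles, such as kinase inhibitors and a galactosidase, so neither count measures senescence. The Glb1 call ended with median centring and without PP2 replicate 1 (adjusted p = 0.053) or 2 (0.0672), or U0126 replicate 1 (0.0685) or 3 (0.0713).

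**Figure D2:**
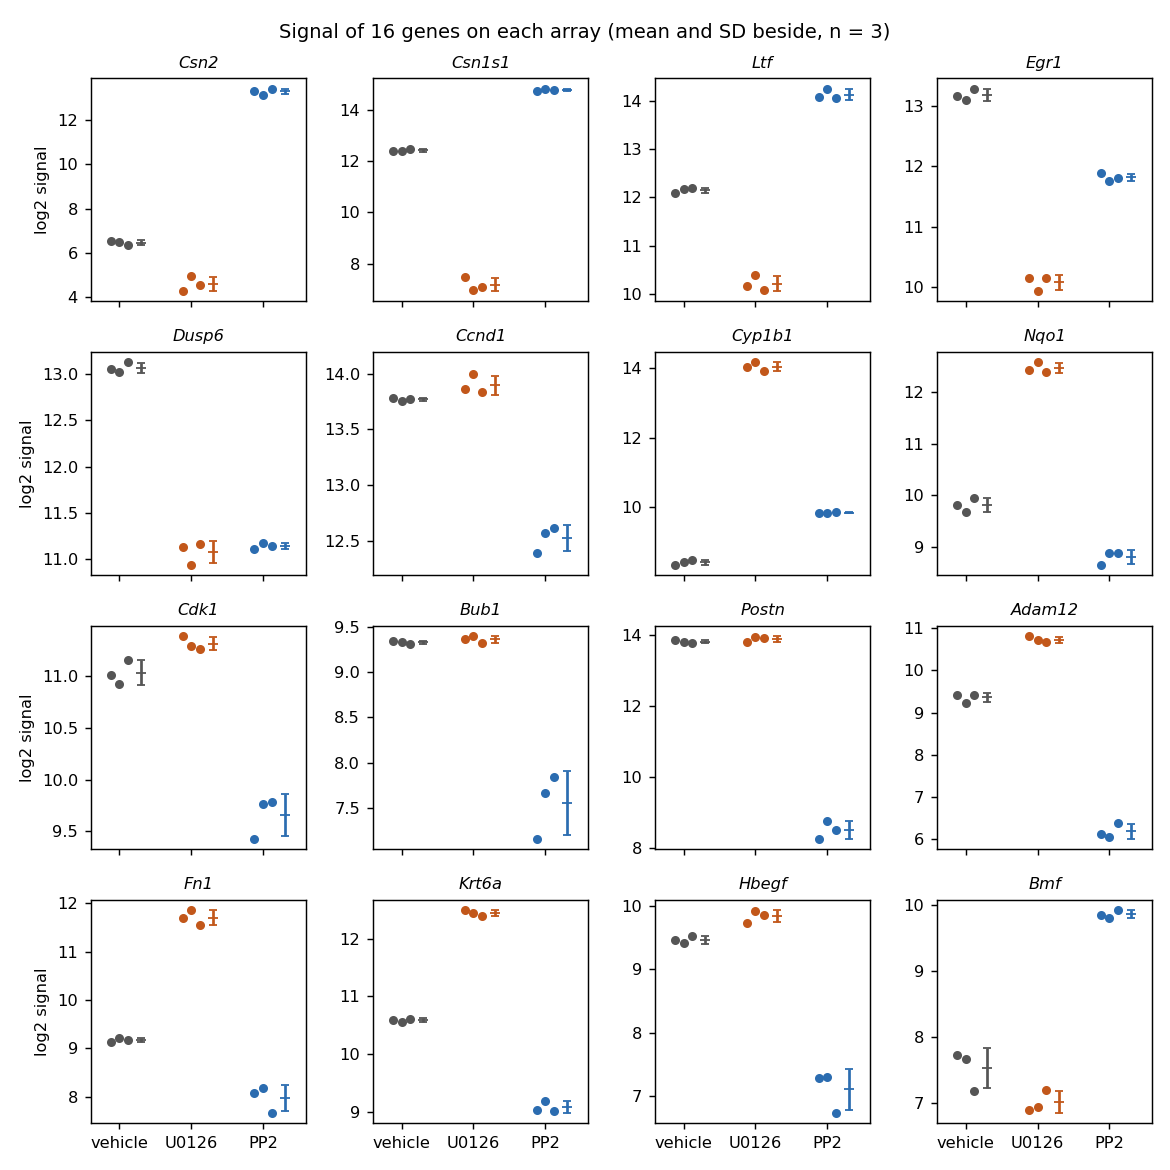
Log2 signal (vertical) of 16 genes on each vehicle (grey), U0126 (orange) and PP2 (blue) array, with the mean and SD of 3 arrays beside the points. Cdk1, Bub1, Postn, Ccnd1 and Hbegf lie near vehicle under U0126 and lower under PP2, Csn1s1 and Ltf lie on opposite sides of vehicle, and Dusp6 lies below vehicle under both inhibitors (means 11.07 and 11.14 against 13.07).

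ERK outputs did not separate the treatments as one block. Dusp6, the phosphatase that ERK induces to switch itself off, read 11.12, 10.93 and 11.16 under U0126 and 11.11, 11.17 and 11.14 under PP2, with 13.06, 13.02 and 13.13 in vehicle. Both groups lay about 2 units below vehicle (−2.00 and −1.93) and overlapped (difference −0.07, SE 0.06, adjusted p = 0.337). Dusp5 (−0.10) and the Sprouty protein Spry2 (−0.17), which restrains receptor signalling, did not pass either. Of 16 ERK outputs 11 were higher in U0126 and 1 in PP2 (27.9% and 27.7% of all genes were), and 4 did not pass. The median was 0.69, or 0.43 with dim genes at their bound and Fosl1, dim in both groups, left out. Fosl1, counted among the 11, did not pass without PP2 replicate 3 (adjusted p = 0.074) or U0126 replicate 1 (0.0568) or 3 (0.0543). Nor did Fosl1 pass with the 6 arrays alone (0.106). Medians relative to vehicle were −0.62 for U0126 and −1.12 for PP2.

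Growth regulators on this list carried the greatest differences among genes that were not dim. Myc, a transcription factor of growth, read 11.57, 11.69 and 11.53 under U0126, 10.09, 10.17 and 10.09 under PP2 and 11.35, 11.32 and 11.42 in vehicle (1.48, SE 0.06, adjusted p = 4.82e-12). Cyclin D1, Ccnd1, which drives G1, read 13.86, 13.99 and 13.84 under U0126, 12.39, 12.57 and 12.62 under PP2 and 13.78, 13.76 and 13.77 in vehicle (1.37, SE 0.06, adjusted p = 6.78e-12). The U0126 arrays of both genes thus lay close to vehicle or above it. The ETS factor Etv5 was 0.77 higher in U0126, while both groups were below vehicle (−1.69 and −2.46). Phlda1, the 1 output higher in PP2, read 12.36, 12.38 and 12.46 under U0126 and 13.55, 13.55 and 13.56 under PP2 (−1.16, SE 0.05), with a vehicle mean of 13.72.

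Of 11 immediate early genes 4 were higher in U0126 and 5 in PP2 (27.9% and 27.7% of all genes were). The median was −0.09, or 0.04 with median centring. It was 0.06 with dim genes at their bound and the 1 dim in both left out. Egr1, a zinc finger factor that ERK activity induces, read 10.16, 9.93 and 10.14 under U0126, 11.89, 11.76 and 11.80 under PP2 and 13.17, 13.10 and 13.29 in vehicle (−1.74, SE 0.09, adjusted p = 8.98e-11). Its relative Egr3 differed by −1.23 and Ier2 by −0.90. Egr2 was also called, but was dim in both groups. Nr4a1 (−0.32), the fifth gene higher in PP2, lost its call with median centring (−0.18, adjusted p = 0.143). Higher in U0126 were Ier3 (1.25), a stress-induced survival factor, Fos (0.79), a component of AP-1, the phosphatase Dusp1 (0.58) and Atf3 (0.46). Atf3 did not pass without PP2 replicate 3 (adjusted p = 0.0969) or U0126 replicate 2 (0.0964), nor with the 6 arrays alone (0.0527). Jun (−0.09) and Junb (0.22) did not pass, except that Jun did without PP2 replicate 2 (adjusted p = 0.0409) and Junb with median centring (0.0113).

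**Figure D3:**
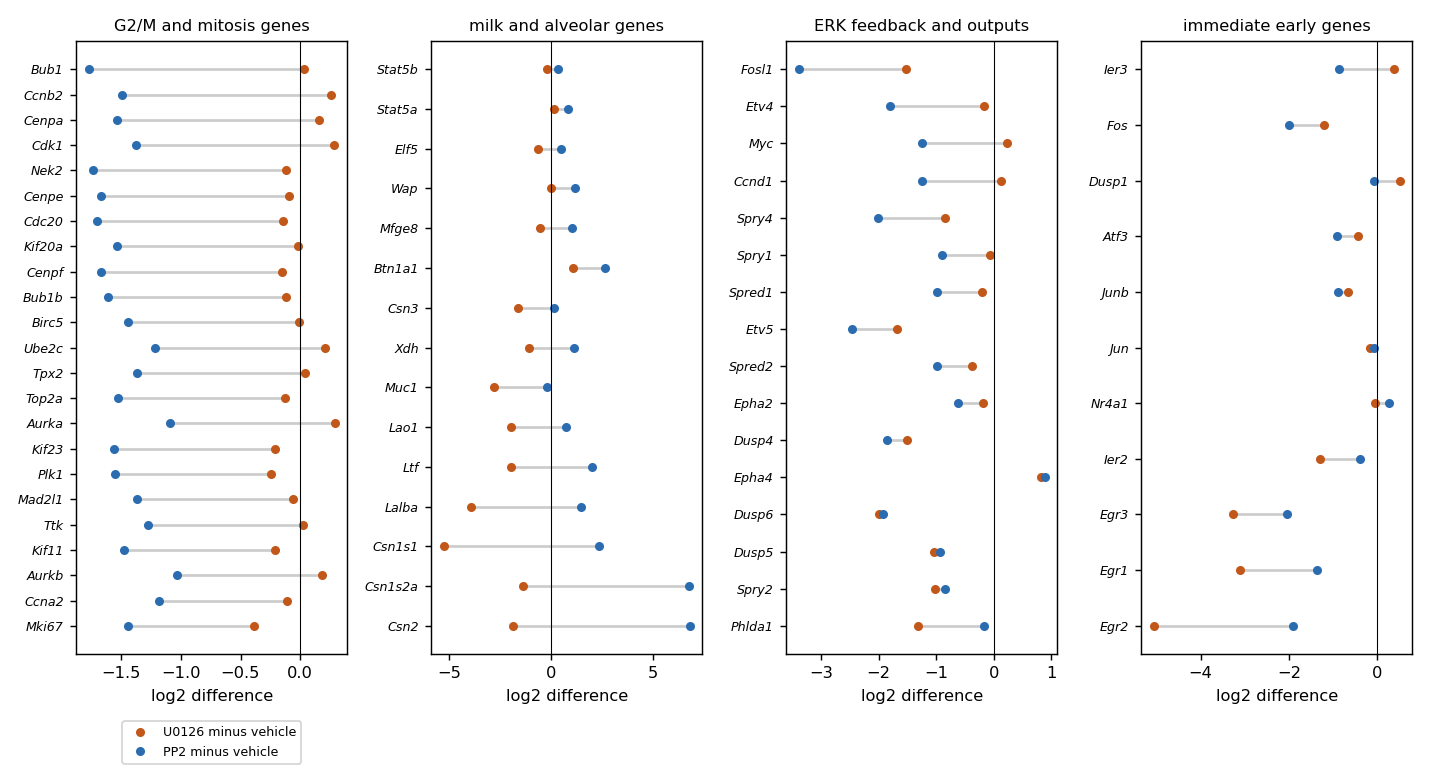
Log2 differences from vehicle for U0126 (orange) and PP2 (blue) in 4 gene lists, with 1 line per gene and both values joined by a grey bar, sorted by the difference between the inhibitors. Mitosis genes lie near 0 under U0126 and between −1.04 and −1.77 under PP2, most milk genes lie on opposite sides of 0, and ERK outputs lie mostly below 0 under both. The 2 series of points share the vehicle arrays.

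Several ligands of the EGF receptor family were higher in U0126, and 3 other members were higher in PP2. Heparin-binding EGF-like growth factor, Hbegf, read 9.74, 9.93 and 9.86 under U0126, 7.28, 7.30 and 6.73 under PP2 and 9.46, 9.41 and 9.52 in vehicle (2.74, SE 0.12, adjusted p = 9.08e-12). Epiregulin, Ereg, differed by 2.91 (SE 0.14), transforming growth factor α, Tgfa, by 2.03 and epigen, Epgn, by 1.95. Neuregulin, Nrg1 (0.66), and the feedback inhibitor Errfi1 (0.18) were called as well. Nrg1 did not pass without PP2 replicate 1 (adjusted p = 0.0934) or 3 (0.185) or U0126 replicate 1 (0.0976) or 3 (0.151), nor Errfi1 without PP2 replicate 1 (0.11) or 3 (0.0948) or U0126 replicate 2 (0.112) or 3 (0.104). Egfr (0.06) and Erbb2 (−0.22) did not pass. Erbb3 (−0.50), the ligand betacellulin, Btc (−0.46), and Lrig1 (−0.79), which promotes receptor degradation, were higher in PP2. In all, 6 of 11 genes were higher in U0126 and 3 in PP2 (27.9% and 27.7% of all genes were), with a median of 0.18. With the 6 arrays alone the 6 became 4, and Nrg1 (adjusted p = 0.0912) and Errfi1 (0.0624) did not pass.

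Transcripts of the inhibitors' own targets are given for both cascades, though both compounds act on proteins, so these levels do not check the labels. Map2k1, which encodes MEK1, had means of 11.44 under U0126 and 11.12 under PP2 (0.31, SE 0.06, adjusted p = 0.000271). Map2k2 differed by −0.40 and Nras by −0.25, and both lost their calls with median centring (adjusted p = 0.0828 and 0.469). Nras also did so without PP2 replicate 3 (0.0732) or U0126 replicate 2 (0.0528). Braf (−0.03), Araf (0.08), Sos1 (−0.06), Shc1 (−0.01), Grb2 (0.11) and the scaffold Ksr1 (−0.58) did not pass. Grb2 passed without PP2 replicate 3 (0.18, adjusted p = 0.0404), and Ksr1 with the 6 arrays alone (adjusted p = 0.0341). Other probe sets of Braf were called in both directions (0.33 and −0.67). Those of Shc1 (0.63) and Grb2 (−0.53) gave called differences of the opposite sign.

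Among Src family genes, Src itself read 8.38, 8.80 and 8.77 under U0126 and 9.53, 9.50 and 8.95 under PP2 (−0.68, SE 0.15, adjusted p = 0.000858). Its relative Fyn read 8.31, 8.33 and 8.31 under U0126 and 7.40, 7.28 and 7.23 under PP2 (1.01, SE 0.12, adjusted p = 1.28e-06). Neither gene's groups overlapped, and PP2 lay above U0126 for Src and below it for Fyn. Frk differed by −0.60 and the adaptor Pag1 by −0.51, while Yes1 (−0.31) and Fgr (0.15) did not pass, although Yes1 did with the 6 arrays alone (adjusted p = 0.037). Csk (−0.27), which inactivates Src kinases, and the substrate cortactin, Cttn (−0.20), were called. Leaving out PP2 replicate 3 or U0126 replicate 3 ended the call of Cttn (adjusted p = 0.0691 and 0.0784). The call of Csk ended when PP2 replicate 1 (0.0562), 2 (0.154) or 3 (0.0695), or U0126 replicate 1 (0.131) or 3 (0.151), was left out. With median centring neither passed (0.42 for Csk and 0.633 for Cttn). In all, 1 of 8 genes was higher in U0126 and 5 in PP2 (27.9% and 27.7% of all genes were). The 5 became 3 without PP2 replicate 3 or U0126 replicate 3, or with median centring.

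Targets of the aryl hydrocarbon receptor (AHR), a ligand-activated transcription factor that induces enzymes for foreign aromatic compounds, were higher in U0126. All 5 tested were called (55.6% of all genes were), each by at least 2-fold, with a median of 4.12. Cyp1a1 was dim in the other 4 groups and entered the test through its U0126 arrays alone, and without the filter on dim genes 5 of 7 were called. Cyp1b1, an oxidase, read 14.05, 14.17 and 13.92 under U0126, 9.85, 9.83 and 9.87 under PP2 and 8.34, 8.43 and 8.48 in vehicle (4.20, SE 0.07, adjusted p = 6.12e-17). Both groups lay above vehicle, U0126 much further. Cyp1a1 read 12.09, 11.95 and 12.03 under U0126 and was dim under PP2, at least 48.8-fold lower. The quinone reductase Nqo1 read 12.44, 12.58 and 12.39 under U0126, 8.64, 8.88 and 8.87 under PP2 and 9.81, 9.67 and 9.95 in vehicle (3.67, SE 0.09). Aldh3a1 differed by 4.12 and Tiparp, which limits the receptor, by 2.37.

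Promoters of 2 cytochrome genes are shown because these gave the greatest differences of this list. They are the 250 bases before the start (RefSeq, GRCm38.p6), with matches to the core that AHR and its partner bind, GCGTG on either strand, in capitals (on the other strand it reads CACGC).
Cyp1a1 (chr9:57697363-57697612, + strand): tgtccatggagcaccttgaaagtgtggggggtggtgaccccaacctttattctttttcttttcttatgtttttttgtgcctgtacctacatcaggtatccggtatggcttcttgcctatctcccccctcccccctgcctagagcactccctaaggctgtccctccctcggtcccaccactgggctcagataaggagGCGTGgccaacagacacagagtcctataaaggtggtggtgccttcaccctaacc
Cyp1b1 (chr17:79715062-79715311, − strand): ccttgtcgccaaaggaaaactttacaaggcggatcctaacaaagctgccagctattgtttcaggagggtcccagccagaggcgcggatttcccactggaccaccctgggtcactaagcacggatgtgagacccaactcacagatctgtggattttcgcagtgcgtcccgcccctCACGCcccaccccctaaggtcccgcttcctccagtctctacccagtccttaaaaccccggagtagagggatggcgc
A match was held by 3 of the 4 tested targets whose promoter is in the table, the third being Tiparp, and 28.2% of all promoters did.

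NRF2, a factor that answers oxidative stress, shares Nqo1 with AHR. Of 10 further NRF2 targets 6 were higher in U0126 and 2 in PP2 (27.9% and 27.7% of all genes were), with a median of 0.50. The glutathione transferase Gsta4 differed by 2.12, haem oxygenase, Hmox1, by 1.05 while Gclc, which starts glutathione synthesis, was also higher in U0126. Glutathione reductase, Gsr (−0.91), and Osgin1 (−0.62) were higher in PP2. Osgin1 did not pass without PP2 replicate 1 (adjusted p = 0.0998) or 3 (0.079), or U0126 replicate 3 (0.0843), which leaves 1 gene.

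Most matrix genes and several mesenchymal genes were higher in U0126. Periostin, Postn, a matrix protein of tumour stroma and wound repair, read 13.80, 13.95 and 13.91 under U0126, 8.26, 8.77 and 8.52 under PP2 and 13.86, 13.80 and 13.77 in vehicle (5.37, SE 0.09, adjusted p = 6.12e-17). The U0126 arrays overlapped with vehicle in this gene, and PP2 differed from vehicle by −5.30. Of 12 laminin, collagen and other matrix genes 10 were higher in U0126 and 0 in PP2 (27.9% and 27.7% of all genes were), with a median of 1.22. Tenascin C, Tnc, differed by 3.24, Col18a1 by 2.06, Sparc by 1.95 and the laminin chain Lamb1 by 1.38. Col1a2 did not pass, and Col1a1 and Col3a1 were among the fibroblast markers dim on all 6 arrays.

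The metalloprotease Adam12 read 10.81, 10.71 and 10.67 under U0126, 6.13, 6.04 and 6.39 under PP2 and 9.42, 9.23 and 9.42 in vehicle (4.54, SE 0.10, adjusted p = 1.17e-15). Adamts1, which cleaves proteoglycans, differed by 2.99 and the inhibitor Timp3 by 1.86. The membrane protease Mmp14 (−0.25) was higher in PP2, but not with median centring (−0.11, adjusted p = 0.459). Of 7 metalloproteases and inhibitors tested, 3 were higher in U0126 and 1 in PP2 (27.9% and 27.7% of all genes were), with a median of 0.07. Mmp3, Mmp7, Mmp9, Mmp10, Mmp13 and Mmp15 of the same list were not tested. Lox, which crosslinks collagen, was at least 14.9-fold higher in U0126, and the procollagen enhancer Pcolce2 at least 2.13-fold.

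Fibronectin, Fn1, read 11.69, 11.86 and 11.56 under U0126, 8.07, 8.18 and 7.67 under PP2 and 9.14, 9.22 and 9.18 in vehicle (3.73, SE 0.14, adjusted p = 1.15e-12). The groups lay on opposite sides of vehicle. N-cadherin, Cdh2, differed by 2.84, vimentin, Vim, by 0.83 and the transcription factor Snai2 by 0.33, while E-cadherin, Cdh1 (−0.05), did not pass and Fgfr1 (−1.10) was higher in PP2. Snai2 did not pass with its other probe set (0.25, adjusted p = 0.163). These made 4 of 6 EMT genes higher in U0126 and 1 in PP2 (27.9% and 27.7% of all genes were), with a median of 0.58. The transcription factors Snai1, Twist1, Zeb1 and Zeb2 of the same list were not tested. Without the filter on dim genes the counts were 4 and 1 of 10, with a median of 0.43. Of 14 targets of YAP and SRF, which answer cell tension, 10 were higher in U0126 and 2 in PP2, with a median of 0.77. Actg2, Tagln and Cnn1 were not tested, and without the filter on dim genes the counts were 10 and 2 of 17. The list pools targets of both factors, so these counts do not speak for either factor alone. The matricellular protein Ccn1 read 12.36, 12.80 and 12.63 under U0126, 10.05, 10.04 and 10.36 under PP2 and 10.85, 10.77 and 10.43 in vehicle (2.45, SE 0.12). Ccn2 differed by 2.34 and the receptor kinase Axl by 2.39. The 2 higher in PP2 were the smooth muscle actin Acta2 (−0.88) and Tead1 (−0.29). Acta2 did not pass without PP2 replicate 1 (adjusted p = 0.0552) or 2 (0.077) or U0126 replicate 2 (0.0574) or 3 (0.0521), which leaves 1 gene, and Tead1 did not with median centring (0.21).

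Focal adhesion genes were called at shares near or below those over all genes (27.9% and 27.7%). Of 18 genes, 4 were higher in U0126, namely the integrins Itgb6 (1.27), Itgb5 (0.93) and Itga3 (0.33) and vinculin, Vcl (0.81). Higher in PP2 were 5, the talins Tln2 (−1.12) and Tln1 (−0.41), Tns3 (−0.72), Ilk (−0.55) and Parva (−0.93), whose other probe set gave 0.42 (adjusted p = 0.00741). The median was −0.14.

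Basal and wound-type keratins were mostly higher in U0126. Krt6a, a keratin of activated epithelium, read 12.49, 12.44 and 12.40 under U0126, 9.02, 9.19 and 9.02 under PP2 and 10.59, 10.55 and 10.61 in vehicle (3.37, SE 0.06, adjusted p = 1.63e-16). Krt17 read 10.32, 10.42 and 10.54 under U0126 and 7.88, 7.65 and 8.23 under PP2 (2.51, SE 0.14), and Krt16, dim in PP2, was at least 2.07-fold higher in U0126. The basal keratins Krt5 and Krt14 differed by 0.99 and 0.66, and the oxytocin receptor Oxtr by 1.18. Krt15 went the other way, dim under U0126 and at least 2.25-fold higher in PP2. Of 11 basal and myoepithelial markers 7 were higher in U0126 and 2 in PP2 (27.9% and 27.7% of all genes were), with a median of 0.66. The other of the 2 was Trp63 (−0.18), the main basal transcription factor, which did not pass without PP2 replicate 1 (adjusted p = 0.0823) or 3 (0.0817) or U0126 replicate 1 (0.0982) or 2 (0.095). It also failed with median centring (−0.04, adjusted p = 0.792). The 7 higher in U0126 became 6 without PP2 replicate 1 or 3 or U0126 replicate 1 or 2. They were also 6 with the other rule for choosing probe sets. On a separate list of 11 keratinization genes, 5 were higher in U0126, 2 in PP2 and 4 were not called, with a median of 0.51. Of the 11, 3 were dim in both groups, and Sprr1a (−4.44) was the lowest.

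**Figure D4:**
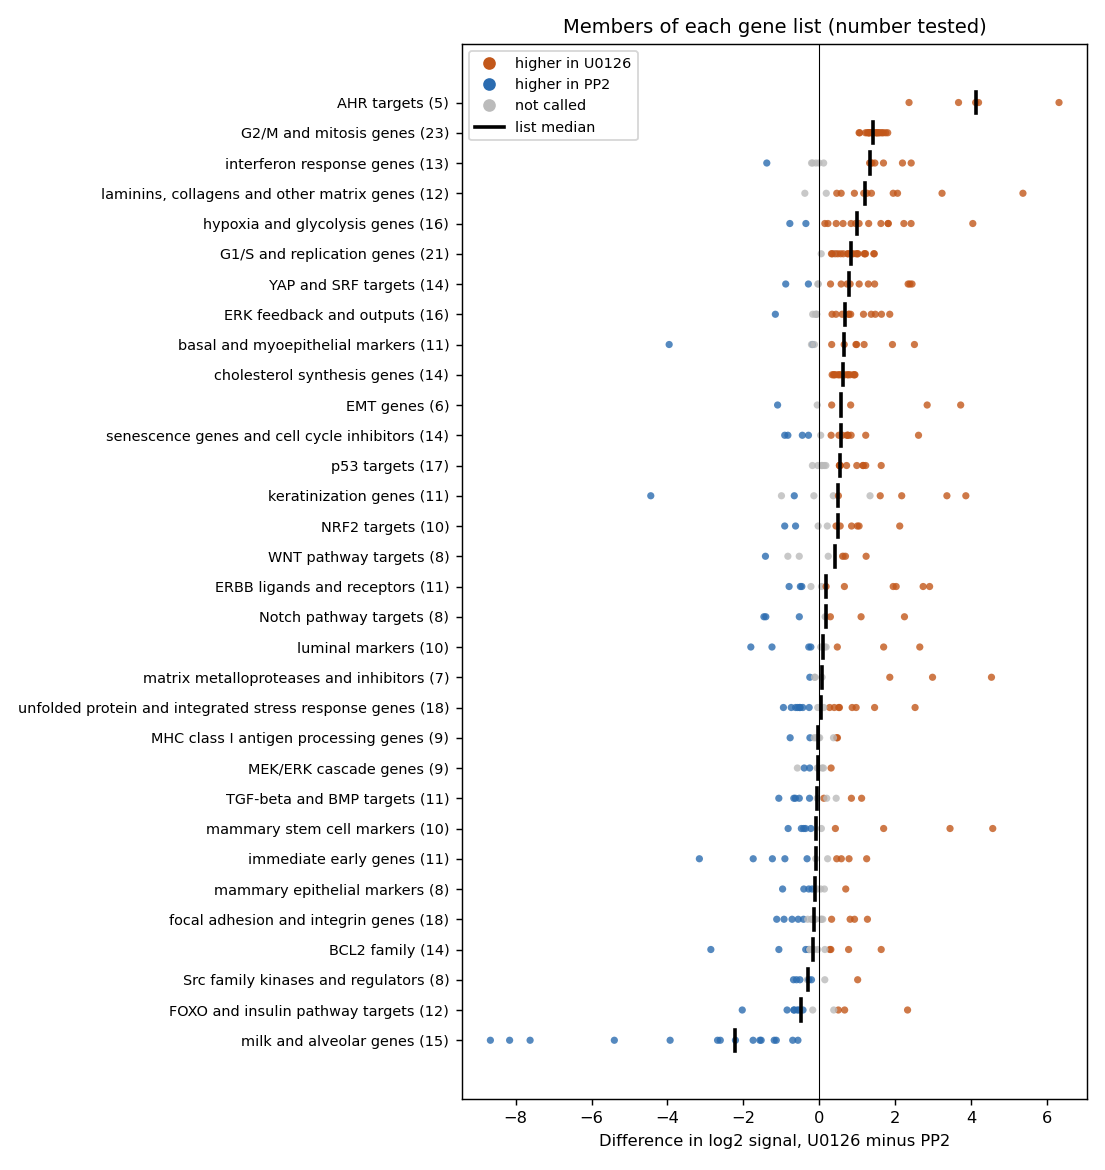
Difference in log2 signal (U0126 minus PP2, horizontal) for each tested member of the gene lists with at least 5 members tested, with calls in orange (higher in U0126) and blue (higher in PP2), other genes in grey and the list median as a black bar. AHR targets have the highest median (4.12) and milk genes the lowest (−2.21), and the 23 mitosis genes lie close together between 1.05 and 1.81.

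Cholesterol synthesis genes and most genes of hypoxia and glycolysis were lower in PP2. Adrenomedullin, Adm, a vasodilator peptide induced by low oxygen, read 9.20, 9.40 and 9.68 under U0126, 8.96, 9.02 and 8.52 in vehicle and was dim under PP2, at least 8.06-fold lower (adjusted p = 2.99e-10). Egln3, an oxygen-sensing hydroxylase, read 10.06, 10.06 and 10.21 under U0126, 7.52, 8.04 and 7.51 under PP2 and 11.40, 11.30 and 11.37 in vehicle (2.42, SE 0.12). The carbonic anhydrase Car9 differed by 2.23, hexokinase Hk2 by 1.82 and Vegfa, which drives vessel growth, by 1.63. Of 16 hypoxia and glycolysis genes 14 were higher in U0126 and 2 in PP2 (27.9% and 27.7% of all genes were), with a median of 1.005. The 2 were Ndrg1 (−0.77) and lactate dehydrogenase Ldha (−0.35). The 14 were 13 when any array but U0126 replicate 3 was left out. Ldha lost its call with median centring (−0.21, adjusted p = 0.0597). All 14 genes tested on the cholesterol synthesis list were higher in U0126, with differences from 0.34 to 0.94. Among them were the regulator Insig1 (0.93) and squalene synthase, Fdft1 (0.82). With the other rule for choosing probe sets 12 of 14 passed, and Lss (0.12, adjusted p = 0.259) and Mvd (0.28, adjusted p = 0.0665) did not. Medians relative to vehicle were −0.21 for U0126 and −0.78 for PP2.

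The list for the unfolded protein response and the integrated stress response had 18 genes. Of these 8 were higher in each group (27.9% and 27.7% of all genes were), with a median of 0.04. Either count was 7 under some alternatives. Those higher in PP2 included Dnajb9 (−0.94), Xbp1 (−0.74), Herpud1 (−0.62) and Hspa5 (−0.43). Those higher in U0126 included genes of amino acid supply and of the integrated stress response, led by Phgdh, the first enzyme of serine synthesis (2.53, SE 0.07, adjusted p = 7.79e-14), and the mTOR inhibitor Ddit4 (1.46). Chac1 (0.97), which breaks down glutathione, the pseudokinase Trib3 (0.87) and asparagine synthetase, Asns (0.40), were among them, as was Edem1 (0.53), which acts in disposal of misfolded proteins.

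Interferon response genes had medians of −3.53 under U0126 and −4.49 under PP2 relative to vehicle. The antiviral enzyme Rsad2 read 8.51, 9.34 and 9.40 under U0126, 6.99, 7.24 and 6.44 under PP2 and 12.59, 12.83 and 12.41 in vehicle (2.19, SE 0.21, adjusted p = 1.43e-07). Ifit2 differed by 1.47 and Usp18, which removes ISG15 from proteins, by 1.39, while Ifit1, dim under PP2, was at least 1.97-fold higher in U0126. Of 13 genes 7 were higher in U0126 and 1 in PP2, with a median of 1.33. The median was 0.98 with dim genes at their bound and the 4 dim in both left out. Among genes above the median on all 6 arrays, 3 of 6 were higher in U0126 and 1 in PP2, with a median of 0.58. Oasl2, counted among the 7 but dim in both groups, did not pass with the 6 arrays alone (adjusted p = 0.139). The 1 higher in PP2 was Rtp4, which read 9.58, 9.62 and 9.63 under U0126 and 11.24, 10.83 and 10.90 under PP2 (−1.38, SE 0.11). Of 9 MHC class I antigen processing genes 2 were higher in U0126, Tap1 (0.46) and Psmb8 (0.48), and 2 in PP2, Tapbp (−0.77) and H2-D1 (−0.25). Both shares lay below those over all genes (27.9% and 27.7%). Psmb8 did not pass without PP2 replicate 1 (adjusted p = 0.0959) or 2 (0.139) or U0126 replicate 1 (0.194). Nor did it pass with the replicate block (0.0509) or the 6 arrays alone (0.12). H2-D1 did not pass with median centring (0.448) or its other probe set (0.908).

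Genes of the BCL2 family, which regulates cell death, were called at shares close to those over all genes (27.9% and 27.7%). Bmf, a BH3-only protein that promotes apoptosis, read 9.86, 9.81 and 9.93 under PP2, 6.89, 6.94 and 7.19 under U0126 and 7.73, 7.67 and 7.17 in vehicle (−2.86, SE 0.15, adjusted p = 1.11e-10). Bcl2l11 (BIM), another BH3-only protein, differed by −1.06, Bad by −0.36 and the survival protein Bcl2 by −0.28. The last 2 lost their calls with median centring (adjusted p = 0.214 and 0.326). Higher in U0126 were the BH3-only genes Pmaip1 (NOXA, 1.63) and Bid (0.77), and the survival genes Mcl1 (0.31) and Bcl2l1 (0.28). Of the other Mcl1 probe sets 4 gave called differences of the opposite sign, down to −0.69. Bcl2l1 did not pass without U0126 replicate 1 (adjusted p = 0.0515). These made 4 of 14 family members higher in each group. Of 17 p53 targets 11 were higher in U0126 and 0 in PP2, with a median of 0.54, among them the antiproliferative gene Btg2 (1.16) and the kinase Plk2 (0.99).

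Among other single genes higher in U0126, the transcription factor Sox11 read 11.18, 11.11 and 11.04 and was dim under PP2, at least 25.9-fold lower. The proteolipid Mal read 13.70, 13.88 and 13.62 under U0126, 9.47, 9.27 and 9.47 under PP2 and 7.50, 7.16 and 7.20 in vehicle (4.33, SE 0.15, adjusted p = 4.16e-13). The homeodomain protein Hopx (12.73 ± 0.14 and 8.24 ± 0.20, n = 3 each) differed by 4.49. Fgfbp1, which releases fibroblast growth factors from the matrix, was at least 26.6-fold higher in U0126 and the lipase inhibitor Angptl4 at least 6.60-fold. Of 10 mammary stem cell markers 4 were higher in U0126 and 5 in PP2 (27.9% and 27.7% of all genes were), with a median of −0.08. The first were Procr (at least 3.63-fold), Aldh1a1 (at least 1.75-fold), Prom1 and Cd44 (0.43). Aldh1a1 was dim in the other 4 groups and entered the test through its U0126 arrays alone. The 5 were Sox10 (−0.82), Sox9 (−0.47), Sox4 (−0.41), Bmi1 (−0.36) and Cd24a (−0.22). Bmi1 and Cd24a lost their calls with median centring (adjusted p = 0.119 and 0.512), and Cd24a without PP2 replicate 2 (0.0662) or U0126 replicate 3 (0.0789).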

How the data were processed

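RNA of 15 mammosphere cultures was hybridised to Affymetrix Mouse430_2 arrays, 1 per sample. Per the labels' protocols, 250 ng of total RNA per sample was labelled with a 3′ IVT kit. The authors deposited signal intensities on a linear scale, made with Affymetrix Expression Console and MAS5 per the submitters' processing notes, with versions and settings not given in the sources used here. From the values, each array had been scaled to a mean of 500 after trimming 2% at each end. Intensities were taken to log2 here with no pseudocount. Of 45101 probe sets 34945 named exactly 1 gene, 932 several and 9160 none, and 64 were controls. Each of 18193 genes was represented by its brightest such probe set over 15 arrays, and a gene was tested where its signal exceeded the array median on 3 or more arrays (11458 genes). List members outside the 11458 genes entered the alternative without that filter only. Of the genes tested, 1330 rested on probe sets of types (_s_at or _x_at) that can also detect related transcripts.

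All 15 arrays were fitted with limma 3.58.1 (R 4.3.3), with 1 coefficient per group and an intensity trend. The contrast was U0126 minus PP2, two-sided, with Benjamini-Hochberg adjustment over all genes tested and a threshold of 0.05. The fit had 10 residual and 6.10 prior degrees of freedom, and the median standard error was 0.0975. The script was tested on simulated data. The number of arrays limits precision. Gene lists, members and the naming rule were chosen with earlier results of these data known. The rule named the 15 greatest differences in each direction, up to 5 called members per list and the inhibitors' targets. Other genes, such as Dusp6, Ptpn11 and Skp2, were named after their values were seen. Same-numbered replicates were not paired: correlations of their deviations were 0.03, −0.09 and 0.11.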

Additional observations from a re-analysis of the deposited data

How the results depend on the processing

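In all, 16 alternatives were run. The count of 6375 genes called stayed between 5483 and 6395. Leaving out 1 array gave 5739 to 6020 genes, 2951 to 3030 higher in U0126 and 2788 to 3030 higher in PP2. With median centring 1795 genes were higher in PP2, against 3174, and 3688 in U0126; centring moves the median difference from −0.02 to 0.12. The 2-fold count of 1180 (693 and 487) was 756 (440 and 316) among genes above the median on all 6 arrays and 699 (407 and 292) with a pseudocount at the median signal, both of which lower the weight of dim genes. Of 284 single genes examined, 259 were called and 49 changed their side of the threshold under at least 1 alternative. Parva kept its call and changed sign, from −0.93 to 0.42 (adjusted p = 0.00741) with the other rule for choosing probe sets; the cause was not tested. The replicate block gave 6237 genes and ended 4 calls among 402 genes named or on a list, Psmb8 (adjusted p = 0.0509), Nrg1 (0.0554), Aldoa (0.0737) and Hsp90b1 (0.0578). It changed no other call among them. Differences among dim genes rest on signals near background.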

Other observations

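Some pathway lists not described above had calls in both directions, where 27.9% of all genes were higher in U0126 and 27.7% in PP2. For lists this short the counts are given as values and are not read as a result about a pathway. Of 8 Notch pathway genes 3 were higher in U0126, the feedback regulator Nrarp (2.25), the ligand Jag1 (1.10) and the receptor Notch3 (0.29, not called with its other probe set, adjusted p = 0.129), and 3 in PP2, Dtx1 (−1.46), Dtx4 (−1.41) and Hey1 (−0.52). Hes1 (0.19) did not pass, except with median centring (0.32, adjusted p = 0.00783). Of 8 WNT pathway genes 3 were higher in U0126, Nkd2 (1.24), Znrf3 (0.69) and Wnt7b (0.62), and 1 in PP2, Rnf43 (−1.42), a ligase that removes WNT receptors.

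Of 11 TGF-beta and BMP targets 3 were higher in U0126, Id1 (1.12), Smad7 (0.85) and Skil (0.12), and 5 in PP2, Smad6 (−1.06), Id3 (−0.67), Tgfb3 (−0.63), Id2 (−0.53) and Smad3 (−0.26). Smad3 lost its call with median centring (adjusted p = 0.34), and Skil without PP2 replicate 1 (0.16) or 3 (0.0994) or U0126 replicate 1 (0.0954) or 2 (0.139). Skil also lost its call with the 6 arrays alone (0.0794). Of 12 FOXO and insulin pathway targets 7 were higher in PP2, led by Txnip (−2.03), which limits glucose uptake, with the insulin receptor Insr at −0.85 and the adaptor Irs1 at −0.67. The 3 higher in U0126 were Pdk4 (at least 3.26-fold, dim in PP2), Pik3ip1 (0.67) and Fbxo32 (0.50).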
